A study of Mus musculus with 22 samples.

Results

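RING1B binding was compared between small intestinal crypts of Pcgf6 knockout (KO) mice and of wild-type (WT) mice of the Villin line, using the peak list of 1 ChIP-seq library for each genotype. The KO list held 2464 peaks and the WT list 4403, together 6867 of the 190797 peaks in the 16 lists of the series. A WT peak with no overlapping base in the KO list was called lost, a WT peak with at least 1 overlapping base was called kept, and a KO peak without WT overlap was called KO-only. By this rule 2424 WT peaks were lost (55.1% of the WT list), 1979 were kept, and 370 KO peaks were KO-only (15.0% of the KO list).

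The series holds 22 samples from crypts of the AhCre and Villin lines and from embryonic stem cells (ESC), with 1 library per group. Both Villin samples are labelled as crosslinked chromatin of C57BL/6 intestinal epithelial cells. The villin promoter is active throughout the intestinal epithelium, and the series ties the Villin line to tamoxifen, which switches on an inducible Cre enzyme. Its design text describes male mice of 8 to 12 weeks at 7 days after induction, but it is written for RNA isolation and does not mention the crypts used for ChIP. The labels do not say whether WT mice carried Cre or received tamoxifen, nor whether animals were pooled. AhCre crypts, induced with beta-naphthoflavone (BNF), and WT ESC serve below for further lists of the same antibodies.

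RING1B is the ubiquitin ligase of Polycomb repressive complex 1 (PRC1), which places ubiquitin on a lysine of histone H2A (the mark H2AK119ub1). PRC1 exists in several forms that differ in their PCGF subunit. PCGF6 defines the variant form PRC1.6, which also holds the DNA-binding proteins MGA with MAX and E2F6 with a DP partner, and which is known for silencing germline genes in ESC. CBX-containing PRC1 instead follows the histone mark of PRC2 and covers developmental regulators such as the Hox clusters. PCGF6 was not profiled in Villin crypts, so the deletion could not be checked there in these lists. In AhCre crypts the PCGF6 lists held 4779 peaks in KO and 17163 in WT. No RING1B peak lay within 1 kb of either end of Pcgf6 itself in either Villin genotype.

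Every score below is the value the authors' peak caller gave a peak, the −log10 of a p or a q value (the sources do not say which). It ranks peaks within a list and is not scaled between libraries. Read numbers are not part of these lists, and depth is therefore unknown. With 1 library per genotype no difference has a replicate check, and no test across mice was possible. Exact intervals of shares cover counting error only. In crypts taken as a whole, loss of RING1B in some cells and weaker binding in all of them cannot be told apart. Positions are 1-based on mm10.

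Promoter sequences are printed for 4 genes among the strongest losses and for 2 of the strongest kept genes, to show the motifs that are counted over all promoters below. Each runs 5′ to 3′ from 250 bases before a RefSeq start (GRCm38.p6) to 50 after it, in the gene's own strand. Capitals mark the E-box CACGTG that MGA and MAX bind, the E2F motif GGCGGGAA or the T-box motif AGGTGTGA, each searched on both strands. The E-box is its own reverse complement, and the other motifs appear as TTCCCGCC and TCACACCT on the opposite strand. None of the matches overlap in the sequences printed.
Micu2, lost, chr14:57999213-57999512, minus strand: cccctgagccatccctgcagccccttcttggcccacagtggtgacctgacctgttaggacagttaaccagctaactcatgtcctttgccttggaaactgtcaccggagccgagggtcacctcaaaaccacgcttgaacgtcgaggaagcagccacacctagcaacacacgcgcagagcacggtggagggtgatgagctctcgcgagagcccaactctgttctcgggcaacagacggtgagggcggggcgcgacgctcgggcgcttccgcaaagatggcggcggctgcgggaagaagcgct
Dhx40, lost, chr11:86807611-86807910, minus strand: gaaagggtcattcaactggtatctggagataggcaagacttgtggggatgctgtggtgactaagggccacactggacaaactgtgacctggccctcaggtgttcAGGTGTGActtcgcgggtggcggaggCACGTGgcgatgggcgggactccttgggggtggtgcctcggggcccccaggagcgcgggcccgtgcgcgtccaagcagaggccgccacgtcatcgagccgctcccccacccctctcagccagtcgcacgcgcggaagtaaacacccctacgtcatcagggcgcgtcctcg
Spop, lost, chr11:95413833-95414132, plus strand: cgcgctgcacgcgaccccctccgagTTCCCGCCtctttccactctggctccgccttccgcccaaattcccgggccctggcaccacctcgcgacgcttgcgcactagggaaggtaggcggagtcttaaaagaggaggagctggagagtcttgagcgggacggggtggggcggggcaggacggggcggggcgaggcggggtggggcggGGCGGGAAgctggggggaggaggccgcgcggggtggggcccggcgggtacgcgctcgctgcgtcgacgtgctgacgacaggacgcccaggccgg
Igf2r, lost, chr17:12769657-12769956, minus strand: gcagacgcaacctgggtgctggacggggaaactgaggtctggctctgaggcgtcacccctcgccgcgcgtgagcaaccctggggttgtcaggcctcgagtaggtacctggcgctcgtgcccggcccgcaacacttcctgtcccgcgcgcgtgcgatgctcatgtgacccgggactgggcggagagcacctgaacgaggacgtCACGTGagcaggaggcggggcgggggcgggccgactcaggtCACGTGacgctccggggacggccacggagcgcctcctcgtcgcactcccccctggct
Igf2bp3, kept, chr6:49214905-49215204, minus strand: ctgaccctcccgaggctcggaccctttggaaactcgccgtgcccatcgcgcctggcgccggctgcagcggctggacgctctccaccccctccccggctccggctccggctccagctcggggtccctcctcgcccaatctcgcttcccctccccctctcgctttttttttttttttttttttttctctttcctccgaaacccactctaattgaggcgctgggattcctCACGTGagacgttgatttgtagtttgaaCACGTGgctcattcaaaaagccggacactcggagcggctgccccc
Isl2, kept, chr9:55540899-55541198, plus strand: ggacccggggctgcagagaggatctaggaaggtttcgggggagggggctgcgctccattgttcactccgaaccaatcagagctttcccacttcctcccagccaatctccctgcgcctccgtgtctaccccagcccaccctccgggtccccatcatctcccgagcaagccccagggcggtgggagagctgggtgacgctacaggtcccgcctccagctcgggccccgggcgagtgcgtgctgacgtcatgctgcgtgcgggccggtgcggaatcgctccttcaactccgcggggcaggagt
The window of Igf2r held 2 E-boxes, that of Spop 2 E2F motifs, and that of Dhx40 an E-box and a T-box motif. The window of Micu2, the gene with the strongest lost peak, held none of the 3 motifs. Of the kept genes, Igf2bp3 had 2 E-boxes and Isl2 had no match.

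The WT list lost more than it kept. KO peaks overlapped 44.9% of WT peaks (exact 95% interval 43.5 to 46.4), and 55.1% were lost (53.6 to 56.5). In the other direction 15.0% of KO peaks were KO-only (13.6 to 16.5). Kept WT peaks were the strong and broad ones. The median score was 12.5 for lost and 21.3 for kept WT peaks, and the median width was 648 bp for lost and 1311 bp for kept peaks. KO-only peaks were the weakest and narrowest, with medians of 11.4 and 538.5 bp.

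**Figure D1:**
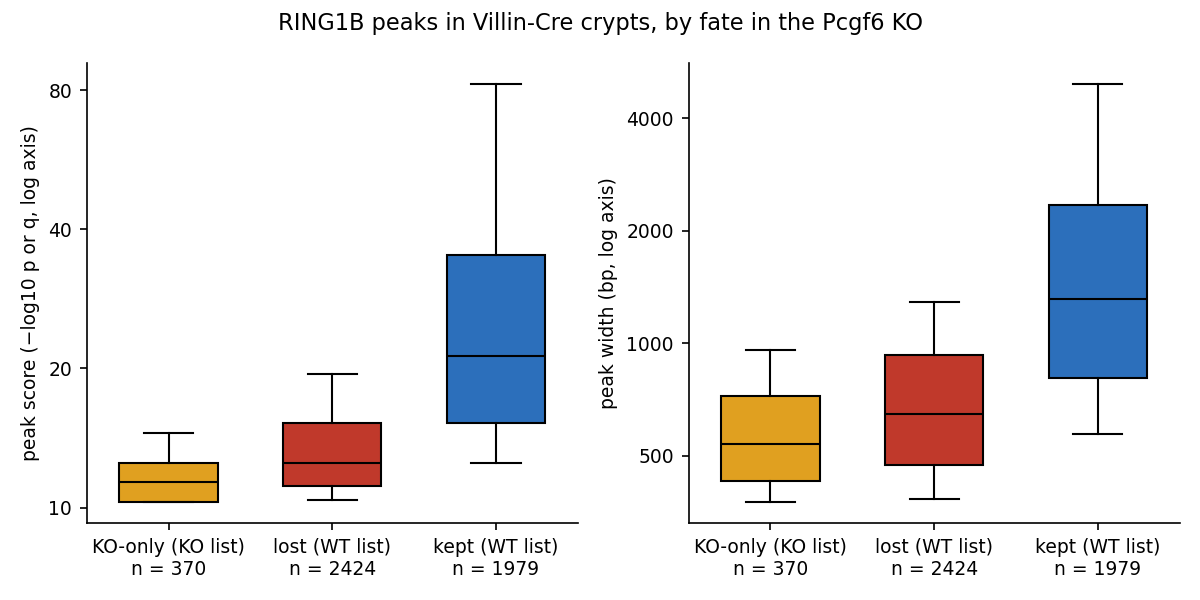
Score (left) and width (right) of RING1B peaks in Villin crypts, on log axes, for KO-only peaks of the KO list and for lost and kept peaks of the WT list. Boxes span the middle 50% with the median as a line, whiskers run from the 10th to the 90th percentile, and the median width was 538.5, 648 and 1311 bp from left to right.

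Many lost and KO-only peaks sat just above the list's minimum score of 10. A score under 12 was found in 42.8% of lost peaks (40.8 to 44.8), in 9.30% of kept peaks (8.05 to 10.7) and in 60.5% of KO-only peaks (55.4 to 65.6). A score of 20 or more was held by 221 lost peaks (9.12%), by 1092 kept peaks (55.2%) and by 2 KO-only peaks. At 50 or more, 15 lost and 343 kept peaks were left. By decile of WT score, the share lost was 86.4% in the weakest decile (82.8 to 89.5), 70.5% in decile 5 and 6.35% in the strongest (4.26 to 9.05), and each decile had a smaller share than the one below it. A lost peak is one absent from the KO list, so signal below the caller's minimum is not excluded. When WT peaks with scores of 20 or more were set against the whole KO list, 16.8% of 1313 were lost (14.8 to 19.0). With the WT list shortened to the length of the KO list by score, 34.9% were lost and 729 KO peaks were unmatched.

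Lost and kept peaks differed in width as well. Under the 1 bp rule a wider WT peak has more bases in which to meet a KO peak. Width was not examined apart from score. Of lost peaks 48 were 2 kb or wider (1.98%), against 605 kept peaks (30.6%). All 61 WT peaks of 10 kb or wider were kept. The widest covered 45498 bp of the Hoxa cluster, which patterns the body axis, with a score of 206. It was followed by Cdkn2a and Cdkn2b, cell cycle inhibitor genes and classic Polycomb targets (25735 bp), the eye and endocrine factor gene Pax6 (24984 bp), the homeobox genes Dlx1 and Dlx2 (22904 bp) and Nkx2-3 (22531 bp). Hoxd8 to Hoxd11 (21986 bp), Zic2 with Zic5 (21559 bp) and Lhx2 (20913 bp) came next. The widest lost peak lay at Dlx5 (4662 bp, score 25.8), another homeobox gene. Next were an intergenic peak on chromosome 13 (3994 bp), Junb, a gene of the AP-1 factors (3242 bp, score 14.7), Gfra1, a receptor for GDNF (3089 bp), and Hand2, a bHLH factor gene (3087 bp). The body of Zdbf2 (2875 bp), the start of Bcor, which encodes a PRC1.1 subunit (2819 bp, score 11.4), and Ap5b1 (2775 bp) completed the 8 widest.

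Kept peaks were mostly narrower in KO. Of 1783 WT peaks that paired with exactly 1 KO peak and back, 1294 were narrower in KO, with median widths of 956 bp in KO and 1245 bp in WT and a median ratio of KO to WT of 0.845. A further 130 WT peaks met 2 or more KO peaks, up to 4, and 38 KO peaks spanned 2 or more WT peaks. Few calls turned on small overlaps. Only 8 kept peaks had a largest overlap under 100 bp, the smallest being 8 bp in the Hoxa cluster (chr6:52184176-52187348, score 36.6). Just outside the rule, 110 lost peaks had a KO peak within 1 kb, the nearest at 88 bp (chr15:76232463-76233051, score 11.4). The median lost peak was 176044 bp from the nearest KO peak, and the median KO-only peak 77539.5 bp from the nearest WT peak.

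Lost, kept and KO-only peaks had similar genomic places. A known transcript start lay within 1 kb of 55.4% of lost, 54.7% of kept and 55.4% of KO-only peaks. Gene ends without a known start took 16.8%, 21.1% and 17.6% in the same order, gene bodies 13.0%, 11.0% and 15.9%, and intergenic sequence 14.8%, 13.2% and 11.1%. The share of WT peaks lost was 55.4% at starts (53.4 to 57.4), 49.3% at other gene ends (45.9 to 52.8), 59.0% in gene bodies (54.7 to 63.2) and 57.9% in intergenic sequence (53.9 to 61.8). In the strongest quintile of WT peaks by score the order was different. There 15.8% of peaks at starts were lost (12.5 to 19.5), against 7.04% at other gene ends (3.90 to 11.5), 9.47% in gene bodies (4.42 to 17.2) and 4.90% between genes (1.99 to 9.83). By chromosome the share lost ran between 50.2% (chromosome 10, 104 of 207 peaks) and 60.8% (chromosome 17, 118 of 194), and the intervals of these extremes overlapped.

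The strongest WT peak of all was intergenic (chr2:98666312-98667278, 967 bp) and was kept, with scores of 2403 in KO and 1982 in WT. It overlapped a peak in 10 of the 14 other lists, CTCF and RAD21 among them. The second, also intergenic (chr17:39843014-39848813), scored 1282 in KO and 960 in WT and overlapped a peak in all 14. In all, 14 WT peaks overlapped a peak in each of the 14 other lists whatever the antibody or cell type, and all 14 were kept in the KO list. Leaving out the peaks found in every other list gave 55.3% of WT peaks lost.

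PCGF6 and H2AK119ub1 separated lost from kept peaks in opposite directions. A PCGF6 peak of AhCre WT crypts overlapped 71.4% of lost (69.5 to 73.2), 51.3% of kept (49.1 to 53.5) and 56.8% of KO-only RING1B peaks (51.5 to 61.9). PCGF6 peaks of AhCre KO crypts overlapped 38.5% of lost, 16.1% of kept and 14.3% of KO-only peaks. H2AK119ub1 of Villin KO crypts overlapped 18.4% of lost, 56.0% of kept and 24.9% of KO-only peaks. In Villin WT crypts H2AK119ub1 overlapped 24.1% of lost (22.4 to 25.9), 64.2% of kept (62.1 to 66.3) and 29.2% of KO-only peaks (24.6 to 34.1). The PCGF6 lists come from another Cre line than the RING1B lists, and kept peaks were wider, which gives them more bases to overlap.

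**Figure D2:**
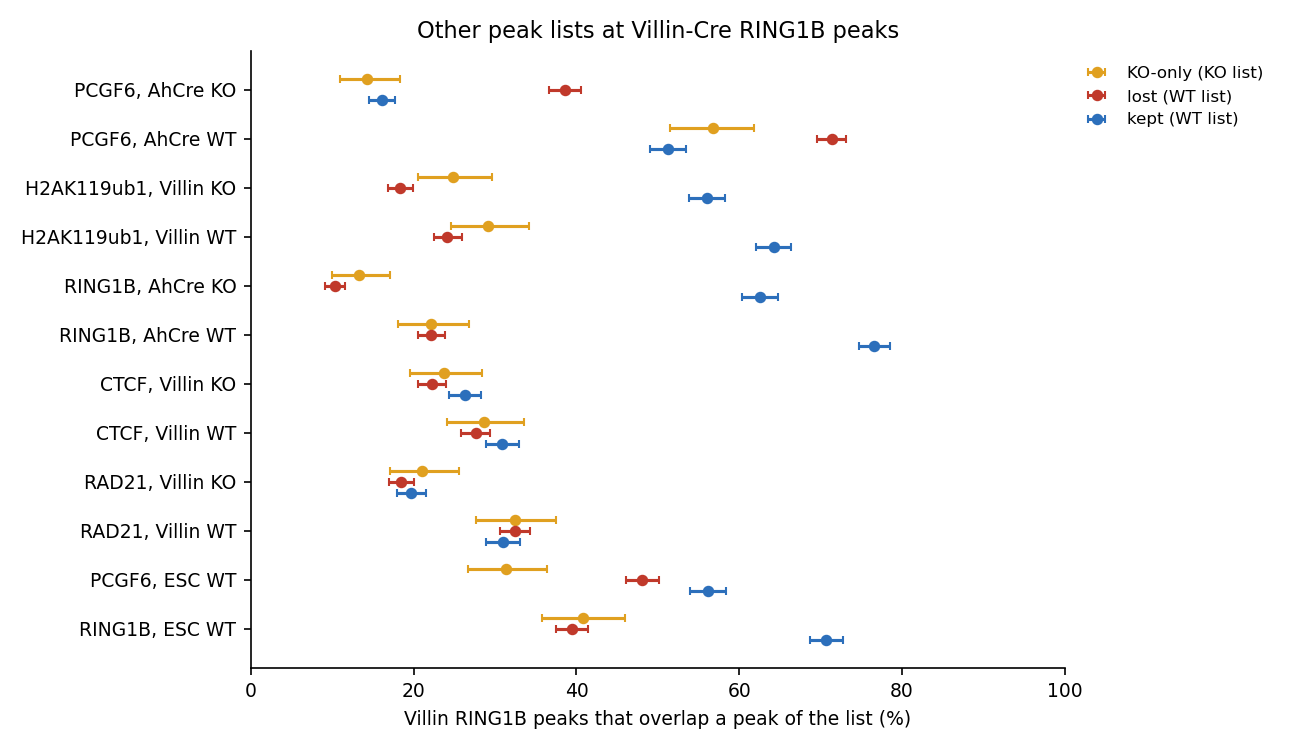
Percent of Villin RING1B peaks that overlapped, by at least 1 bp, a peak of each other list (rows), for KO-only, lost and kept peaks. Bars are exact 95% intervals for counting error only, and lost peaks lie right of kept peaks for both crypt PCGF6 lists (71.4% against 51.3% for AhCre WT) and left of them for H2AK119ub1 (24.1% against 64.2% for Villin WT).

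The insulator protein CTCF and the cohesin subunit RAD21 did not separate the classes in this way. CTCF of Villin WT crypts lay at 27.6% of lost and 30.9% of kept peaks, and RAD21 at 32.4% of lost and 31.0% of kept peaks. RING1B of WT ESC overlapped 39.5% of lost and 70.7% of kept peaks, and PCGF6 of WT ESC overlapped 48.1% of lost and 56.1% of kept peaks. Thus the higher PCGF6 share at lost peaks was seen with the crypt PCGF6 lists and not with the ESC list. RING1B of AhCre WT crypts overlapped 22.2% of lost, 76.6% of kept and 22.2% of KO-only peaks.

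Since weak peaks were lost more often, the classes were also set side by side at like RING1B score. In each quintile of the WT list by score, peaks with PCGF6 were lost more often than peaks without it. From the weakest quintile to the strongest, the share lost was 88.5%, 80.6%, 70.5%, 43.7% and 20.2% with PCGF6, and 80.0%, 69.3%, 53.7%, 24.8% and 2.70% without it. In the strongest quintile this was 88 of 436 peaks with PCGF6 (16.5 to 24.3) and 12 of 445 without (1.40 to 4.66). Where PCGF6 also had a peak in AhCre KO crypts, 83 of 206 peaks in that quintile were lost (40.3%), against 17 of 675 elsewhere (2.52%).

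The combination of PCGF6 without H2AK119ub1 held most of the loss among strong peaks. Over the whole WT list, 1479 of 1943 such peaks were lost (76.1%, 74.2 to 78.0). With both PCGF6 and H2AK119ub1, 251 of 802 were lost (31.3%), and with H2AK119ub1 alone 334 of 1054 (31.7%). With neither, 360 of 604 were lost (59.6%). In the strongest quintile the shares were 43.9% for PCGF6 without H2AK119ub1 (75 of 171, 36.3 to 51.6), 9.46% for neither (7 of 74), 4.91% for both (13 of 265) and 1.35% for H2AK119ub1 alone (5 of 371, 0.439 to 3.12). Of the 100 peaks lost in that quintile, 75 thus had PCGF6 and no H2AK119ub1.

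**Figure D3:**
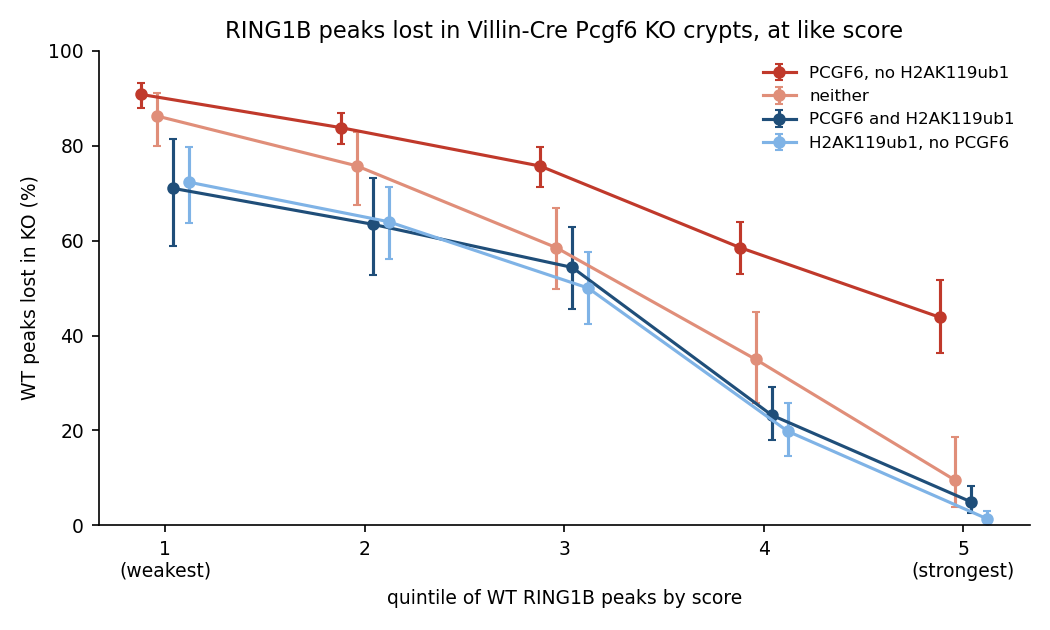
Percent of Villin WT RING1B peaks lost in KO (vertical axis) by quintile of RING1B score (horizontal axis), split by overlap with PCGF6 of AhCre WT crypts and H2AK119ub1 of Villin WT crypts. Bars are exact 95% intervals for counting error only, and in the strongest quintile 43.9% of peaks with PCGF6 and no H2AK119ub1 were lost, against 1.35% of those with H2AK119ub1 alone.

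Stronger PCGF6 peaks went with more frequent loss. Among the 2745 WT RING1B peaks with PCGF6, the share lost was 53.6%, 56.3%, 61.4%, 67.9% and 76.0% from the weakest to the strongest quintile by PCGF6 score. The median RING1B score in these quintiles was 14.1, 13.6, 13.6, 13.9 and 17.8, so the top quintile had the strongest RING1B and still the largest share lost. H2AK119ub1 lay at 41.0% of peaks in the weakest and 18.8% in the strongest of these quintiles. The median PCGF6 score was 36.7 at lost peaks and 25.8 at kept peaks. The 30 strongest lost peaks (scores from 40.8 up to 137) stood out in the same way. PCGF6 of AhCre WT crypts lay at 28 of them, with a median PCGF6 score of 534, and PCGF6 of AhCre KO crypts at 27. H2AK119ub1 lay at 2 of them in Villin KO and at 5 in Villin WT. The 30 strongest kept peaks had PCGF6 in 16 cases, with a median PCGF6 score of 18.8, and H2AK119ub1 in 25 cases in each genotype. Their median widths were 938 bp for lost and 6304 bp for kept peaks.

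**Figure D4:**
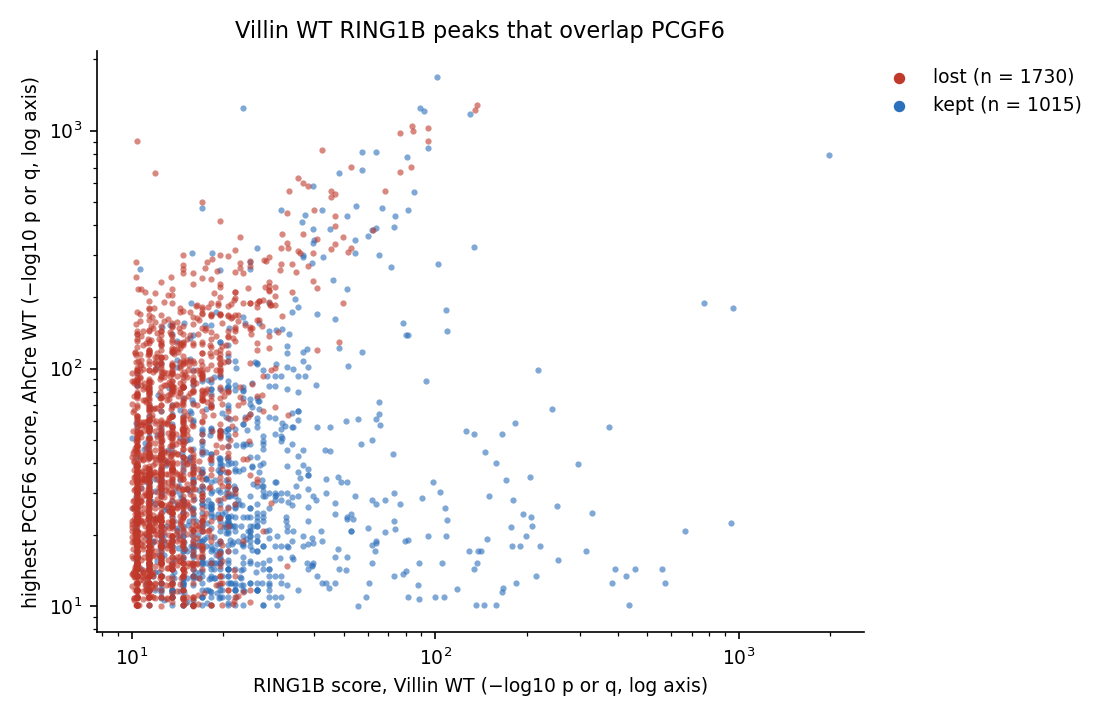
RING1B score in Villin WT crypts (horizontal, log axis) against the highest overlapping PCGF6 score in AhCre WT crypts (vertical, log axis) for WT RING1B peaks with PCGF6, 1 point a peak, 1730 lost and 1015 kept. Lost peaks fill the left side and the diagonal arm of high PCGF6 scores up to a RING1B score of 137, and peaks with PCGF6 beyond that score were kept.

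At the level of genes, a RING1B peak lay within 1 kb of either end of 1666 of 21887 protein-coding genes in KO and of 3112 in WT. A gene was called lost when it had a WT peak there, no KO peak, and no WT peak that overlapped any KO peak. This held for 1670 genes, which is 53.7% of genes with a WT peak (51.9 to 55.4) and 7.63% of all genes. RING1B was kept at 1450 genes (6.62% of all) and KO-only at 246 (1.12%). Neighbouring genes can share a peak, and the lost genes had 1463 distinct strongest peaks. A WT PCGF6 peak lay in the window of 81.6% of lost, 61.6% of kept and 69.5% of KO-only genes, and Villin WT H2AK119ub1 in that of 23.1%, 62.7% and 29.3% in the same order.

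Of the lost genes Micu2, which encodes a regulator of the mitochondrial calcium uniporter, had the strongest peak, with no KO peak and a WT score of 135 at its start (chr14:57998773-57999857). It was followed by a shared peak of Mepce and Zcwpw1 (no KO peak, WT score 95.0). Mepce caps the 7SK RNA, and Zcwpw1 is a histone methylation reader of meiosis. Next were the shared peak of 4930432K21Rik and Cc2d1a (94.8), the helicase gene Dhx40 (83.5), the mitochondrial gene Cmc1 and the cullin 3 adaptor gene Spop (76.5 each). Zfp280d (68.4), Cd74, the invariant chain of MHC class II (60.5), and the imprinted receptor gene Igf2r with the ubiquitin ligase gene Rnf130 (52.8 each) came after these. A430005L14Rik (51.5) and Tmem185b (49.7) completed this group. All of these genes but Cd74 had a PCGF6 peak in both AhCre genotypes, and its WT score was between 309 (A430005L14Rik) and 1220 (Micu2). At Micu2 the PCGF6 score was 170 in AhCre KO and 1220 in AhCre WT.

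Some strong lost peaks lay outside the windows at gene ends. Among them were peaks at starts inside Cops7a, a COP9 signalosome gene (84.5), and Tasor, a gene of the HUSH silencing complex (83.2), and in the bodies of the kisspeptin receptor gene Kiss1r (62.3) and of Snx15 (49.7).

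Several strong losses had no counterpart in AhCre WT crypts, where no RING1B peak overlapped them. Besides Cd74 and A430005L14Rik, these were the E2F partner gene Tfdp1 (45.3), the F-box gene Fbxo11 (42.3), the syntaxin gene Stx4a (40.0), the complex III assembly gene Uqcc2 (37.9), the deubiquitinase gene Usp10 (36.5) and the peak shared by 4930563E22Rik and the Mediator gene Med31 (35.2). Cd74 and Fbxo11 also had no PCGF6 peak, while the other genes had PCGF6 in both AhCre genotypes. Over all 1670 lost genes, 271 also lost RING1B in AhCre crypts, 91 kept it there, 50 had it only in AhCre KO, and 1258 had none in either AhCre genotype. For the 1450 kept genes these counts were 294, 806, 61 and 289. An AhCre WT peak was present at 360 of the lost genes, of which 271 lost it in AhCre crypts. It was present at 1096 of the kept genes, of which 294 lost it. Of all genes with an AhCre WT peak, 44.7% lost it (757 of 1693).

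Of the kept genes Igf2bp3, an RNA-binding protein gene of fetal tissues, had the highest WT score, with 731 in KO and 941 in WT. The homeobox gene Tlx2, which shares its peak with Dqx1, scored 547 in KO and 837 in WT, and the homeobox gene Isl2 588 in KO and 766 in WT. Cyp24a1, which breaks down active vitamin D, with Pfdn4 (500 in KO, 664 in WT), Ndrg3 (449 and 571), the homeobox gene Hmx2 with Bub3 (410 and 569) and the blood factor gene Tal1 (470 and 560) came next, KO first in each pair. Dmbx1, Otx1, Rnf220 and Mecom had WT scores between 426 and 556. In each of these peaks the KO score was below the WT score, which is not a measure of change since the libraries were not scaled to each other. H2AK119ub1 was kept at each of these genes but Ndrg3, where neither genotype had it. The AhCre crypts had RING1B in both genotypes at every one of them.

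KO-only genes had low scores throughout. Mitf, a bHLH factor gene, and Sdc1, the syndecan gene, were highest (21.0 in KO, no WT peak). Klf7 and Stx6 followed (18.5 each), then Tmem178b and the peak shared by Ano8 and Gtpbp3 (17.2 each), Ubr4 (17.1), and Limch1, Rbm24, Wwox, Zbtb1 and the peak shared by Cacnb1 and Rpl19 (16.0 each). At Zbtb1 and Rpl19 a WT peak lay within 1 kb of a known start that is not at a gene end, as at 6 of the 246 KO-only genes. Conversely, 10 of the 1670 lost genes had a KO peak at a known start.

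Of 34 Hox genes with a WT peak 33 kept it, and Hoxd4 alone lost a weak one (10.6). These are counts of genes, and neighbours share peaks. Hoxa3, Hoxa5 to Hoxa7 and Hoxa9 to Hoxa11 had 1 strongest WT peak in common (45498 bp), and so did Hoxd8 to Hoxd11 (21986 bp). Among the other homeobox factors 10 of 81 were lost, led by Dlx5 (25.8), Barhl1 and Six3 (21.9 each). At Barhl1 a KO peak lay within 1 kb of a known start that is not at a gene end. The share was 7 of 56 among forkhead, Sox, T-box, GATA and related factors, led by the Hedgehog effector gene Gli2 (18.2). These shares, 2.94%, 12.3% and 12.5%, compare with 53.7% of all genes with a WT peak. Nkx1-2 (12.2), Nkx6-3 and Pax2 (10.3 each) were KO-only, and at Pax2 a WT peak lay within 1 kb of a known start. Kept members of the homeobox list had a median WT score of 82.5, and those of the Hox list 105, against 20.7 for all kept genes.

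**Figure D5:**
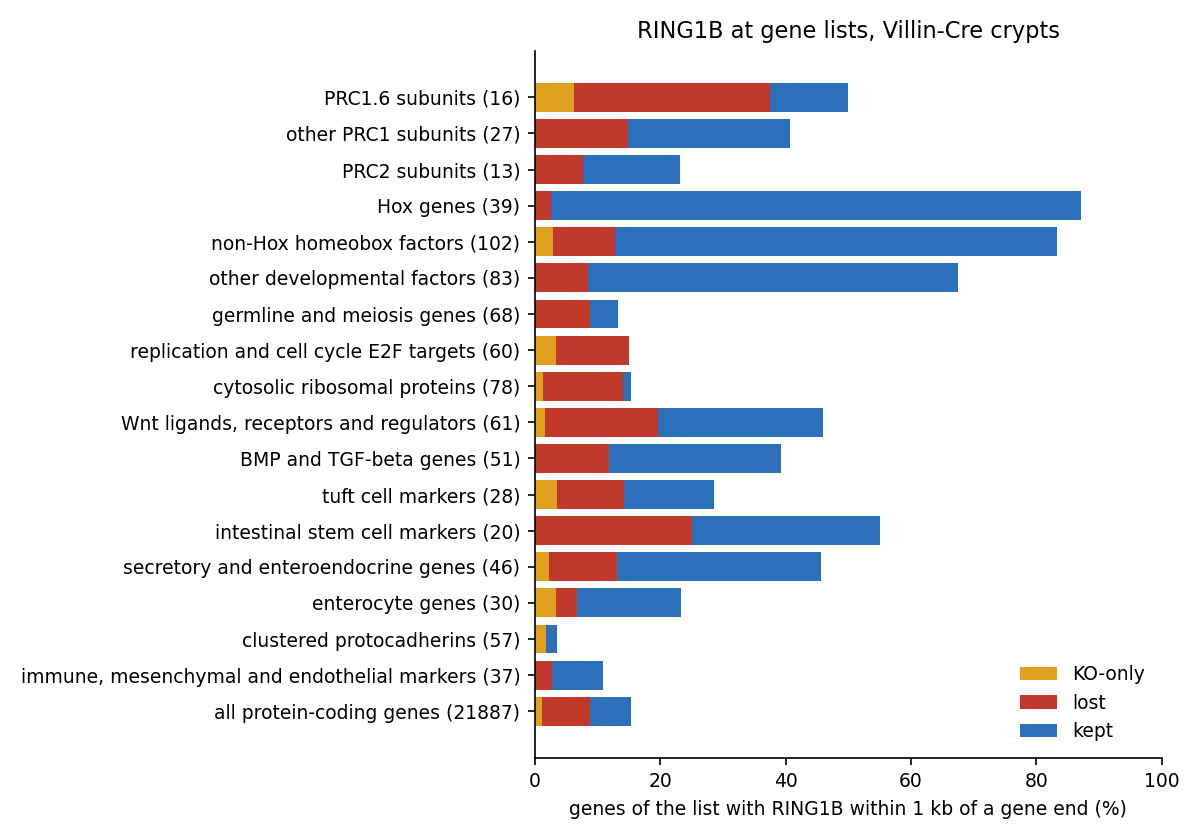
Percent of genes of each list (rows, number of genes measured in brackets) with RING1B within 1 kb of a gene end in Villin crypts, split into KO-only, lost and kept. Of genes with a WT peak, 33 of 34 Hox genes were kept and 10 of 81 other homeobox genes were lost, while all 7 E2F targets were lost.

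RING1B was lost at 5 of the 7 PRC1.6 genes with a WT peak, 71.4%, whose exact 95% interval (29.0 to 96.3) includes the 53.7% of all genes. They were Tfdp1 (45.3), the deacetylase gene Hdac2 (35.2), E2f6 (34.8), Rybp (14.7) and Tfdp2 (11.4). All 5 had a PCGF6 peak, as did 81.6% of all lost genes. Mga, the scaffold of the complex, kept its peak with scores of 23.6 in KO and 130 in WT, and Ring1, which encodes the paralog of RING1B, scored 10.3 in KO and 17.1 in WT. Yaf2, the paralog of Rybp, was KO-only (15.4). For the other PRC1 genes 4 of 11 were lost (10.9 to 69.2), Phc1 (17.1), Kdm2b, Auts2 and Bcor (11.4 each). The CBX genes Cbx2 (154 in KO, 179 in WT) and Cbx8 (77.3 and 109) and the PCGF gene Bmi1 (65.9 and 100.2) kept theirs. Of the PRC2 genes Ezh2, the methyltransferase, was lost (19.5), while Epop (21.0 in KO, 33.8 in WT) and Phf19 (10.3 and 23.2) were kept.

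For E2F targets and ribosomal protein genes the exact 95% intervals lay above the 53.7% lost of all genes with a WT peak. All 7 E2F targets with a WT peak were lost (59.0 to 100), Cdca7l (28.4), the kinase gene Cdk2 (25.8), Msh6 (17.1), Ccne1 (14.4), E2f8, Cdt1 and Mybl2, and each had PCGF6. E2f7 (13.6) and Cdca7 (11.3) were KO-only. Of 11 cytosolic ribosomal protein genes with a WT peak 10 were lost (58.7 to 99.8), with WT scores of 15.6 (Rpsa) and below, and Rpl10a was kept (13.3 in KO, 11.0 in WT). Germline genes with a WT peak were lost in 6 of 9 cases (29.9 to 92.5, which includes the share of all genes). Besides Zcwpw1 these were Rec114 (23.2), Terb1 (19.5), Meiob (13.6), Tdrd1 and Pld6, genes of meiotic recombination and the piRNA pathway. Hspa2 (37.0 in KO, 62.1 in WT), Tdrkh (16.0 and 42.4) and Syce2 (14.8 and 28.4) were kept. Only 9 of 68 germline genes had a WT peak, 13.2% against 14.2% of all genes.

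Lists for crypt biology are also set against the 53.7% of all genes with a WT peak. In the Wnt list 11 of 27 such genes were lost (22.4 to 61.2), among them the secreted inhibitor gene Sfrp2 (18.2), the ligand genes Wnt6 (17.6) and Wnt7b (15.9) and the receptor-clearing ligase gene Znrf3 (16.4). The Wnt effector genes Lef1 (54.4 in KO, 90.8 in WT) and Tcf7 (11.4 and 21.9) were kept. In the BMP and TGF-beta list 6 of 19 were lost (12.6 to 56.6), led by Bmp8b (26.9). Stem cell markers were lost in 5 of 10 cases (18.7 to 81.3), Znrf3, Tert (15.1), Tnfrsf19 (13.6), Smoc2 (11.1) and Lrig1 (10.4), and kept at Bmi1, Ascl2 (19.4 in KO, 26.2 in WT) and Sox9 (12.4 and 14.1). Lgr5, the crypt base stem cell receptor, counted as kept because its KO peak (19.9) overlapped a WT peak that ends outside the window. Secretory and enteroendocrine genes were lost in 5 of 20 cases (8.66 to 49.1), Jag1 (17.1), Rfx6 (15.9), Hes1 (13.6), Sct (12.0) and Lmx1a (10.4), the last with a KO peak at a known start. The intervals of the Wnt, BMP and stem cell lists include the share of all genes, and that of the secretory list lies below it. The secretory master regulator Atoh1 (84.8 in KO, 129 in WT), Gfi1 (143 and 224) and Insm1 (44.2 and 108) were kept. The Notch ligand gene Dll1 was KO-only by gene ends (11.4), but a WT peak lay within 1 kb of a known start.

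Tuft cell markers were lost in 3 of 7 cases (9.90 to 81.6, against 53.7% of all genes with a WT peak), the tuft regulator Pou2f3 (17.1), Ltc4s and Sh2d6 (12.5 each). Of the enterocyte genes 1 of 6 was lost (0.421 to 64.1), Klf5 (10.4), and Prdm1 (117 in KO, 205 in WT) and Gata4 (65.8 and 88.2) were kept. Vil1, the villin gene whose promoter names this mouse line, had a KO-only peak at its start (15.9) and no RING1B in either AhCre genotype. Markers of immune, mesenchymal and endothelial cells, which are not crypt epithelium, had a WT peak in 4 of 37 cases and lost the one at Kdr (10.7). Only Pcdhgc4 was KO-only among the clustered protocadherins, 1 of which was kept.

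H2AK119ub1 peaks with high scores of their own mostly stayed where RING1B peaks were lost. At the 30 strongest lost RING1B peaks, by contrast, H2AK119ub1 lay at 5 in Villin WT and at 2 in Villin KO. In Villin crypts 45.2% of all 6219 WT H2AK119ub1 peaks had no overlapping KO peak. The share was 36.3% for those that overlapped lost RING1B peaks alone (206 of 567, 32.4 to 40.4), 21.7% for those at kept RING1B (331 of 1526) and 55.1% for those at no WT RING1B peak (2274 of 4126). For H2AK119ub1 peaks with scores of 20 or more, 0 of 85 were lost at lost RING1B, which allows up to 4.25% (exact upper bound), against 25 of 544 at kept RING1B (4.60%) and 28 of 216 elsewhere (13.0%).

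Cohesin peaks behaved otherwise. Of all WT RAD21 peaks 24.4% were lost, and the share was 44.3% at lost RING1B (342 of 772), 39.1% at kept RING1B (253 of 647) and 23.1% elsewhere. These RAD21 peaks had median scores of 18.6, 23.1 and 30.3 in the same order. For RAD21 scores of 20 or more the shares were 13.8%, 12.5% and 5.95%. CTCF, of which 9.18% of WT peaks were lost, gave 18.4% at lost RING1B, 16.2% at kept RING1B and 8.83% elsewhere, and 3.77%, 2.88% and 2.02% at scores of 20 or more. For both proteins the intervals at lost and kept RING1B overlapped, and both lay above the share elsewhere, except for CTCF peaks with scores of 20 or more at kept RING1B (1.62 to 4.71 against 1.85 to 2.19).

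Taken without regard to PCGF6, lost and kept promoters differed for the E-box. Of promoter windows with a lost RING1B peak, 16.8% held CACGTG (183 of 1091, 14.60 to 19.13), against 10.4% with a kept peak (99 of 953, 8.52 to 12.5), 5.65% with a KO-only peak (7 of 124) and 7.84% of all 21263 RefSeq windows of the same length. Windows with PCGF6 held it in 19.3% of lost (173 of 896), 14.2% of kept (74 of 522) and 12.5% of cases without RING1B (734 of 5859). Without PCGF6 it was in 5.13% of lost (10 of 195) and 5.80% of kept windows (25 of 431). The E2F motif was in 4.58% of lost, 4.83% of kept and 2.85% of all windows, and the T-box motif in 1.28%, 0.839% and 1.15%. Base composition was alike, with a median GC content of 64.3% in lost, 65.0% in kept and 56.3% in all windows, and a median ratio of observed to expected CpG of 0.808, 0.779 and 0.567. A match of letters is a description and does not show that a factor binds there.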

How the data were processed

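ChIP-seq peak lists were used as deposited, with 1 library per group. Per the submitters' processing notes, the tools were Bowtie 1.2.2 and 1.1.2 and MACS2 2.1.1 with builds mm10, dm6 and hg38, and the role of each is not given in the sources used here. Scores are the −log10 of a p-value or q-value from the authors' peak caller, in the deposited lists, and the sources do not say which. Peaks were called per sample with WT input named as the reference, per the labels. Every score is 10 or more, and 3924 of 4403 WT peaks share their exact score with another. Score groups break such ties by genomic position, after sorting by chromosome, start and end.

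Chromosomes 1 to 19, X and Y were kept, which left out 2 mitochondrial peaks per RING1B list. Overlaps of 1 bp, gene windows of 1 kb and Clopper-Pearson 95% intervals were computed with Python 3.11.15, numpy 2.4.6, pandas 2.3.3 and scipy 1.17.1, and figures with matplotlib 3.10.9. Gene positions and promoters are RefSeq GRCm38.p6. Starts were known for 17492 of the protein-coding genes, so windows at either gene end were used for all. Named genes were the 12 highest lost, kept and KO-only, the 8 highest lost without AhCre RING1B, the 8 widest peaks, members of 17 lists, and Pcgf6, of which some are not reported here. Tasor, Cops7a, Kiss1r, Snx15 and the 6 printed promoters were chosen after their values were seen. The members and lists were chosen with earlier results of these data known. All 200 peaks removed from a copy were found, and 0 of 4 overlap counts differed from bedtools 2.31.1.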

Additional observations from a re-analysis of the deposited data

Results flagged for a closer look

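RING1B calls went opposite ways between the Cre lines at a small set of genes. Of the 1670 genes lost in Villin crypts, 50 were KO-only in AhCre crypts, against 61 of the 1450 kept genes. An AhCre WT peak was present at 360 of the lost genes, and 271 of these lost it in AhCre crypts too. Of the 246 genes KO-only in Villin crypts, 53 had an AhCre WT peak, and 36 of these lost it. A further 11 were KO-only in AhCre crypts too. Among all genes with a WT peak in AhCre crypts, 44.7% lost it (757 of 1693). Many opposite calls rested on scores just above the minimum of 10. At Barhl1, called lost in Villin crypts, a KO peak lay within 1 kb of a known start. At Zbtb1, called KO-only there, a WT peak did. With 1 library per group the difference between the lines was not tested. Over all 21887 protein-coding genes, opposite calls were found at 50 in one direction and 36 in the other. The genes with opposite calls included 3 genes of antigen presentation out of 8 looked up, named here after their values were seen. Picked in this way, 3 of 8 is not a measure of enrichment. Cd74 had no peak in Villin KO and a score of 60.5 in Villin WT, but 24.2 in AhCre KO and none in AhCre WT. H2-K1 had no peak in Villin KO and 22.3 in Villin WT, but 10.3 in AhCre KO and none in AhCre WT. H2-Ab1 went the other way, with 10.2 in Villin KO and none in Villin WT, against none in AhCre KO and 35.4 in AhCre WT. H2-D1 did not go opposite ways, with 13.2 in Villin KO, 10.3 in Villin WT and none in either AhCre genotype. The class I light chain gene B2m, the class II genes H2-Aa and H2-Eb1, and the regulator Ciita had no RING1B peak in any of the 4 lists.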

How the results depend on the processing

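No paired analysis was possible because each group has 1 library. Of 64 recomputed values 31 stayed within the interval of the share or within 1.5 times the count. The values below did not. With a KO peak within 1 kb counted as a match, 52.6% of WT peaks were lost and 73.3% of lost peaks had PCGF6. With both lists at scores of 20 or more, 53.5% were lost, 54 peaks and 40 genes were KO-only and 514 genes were lost. PCGF6 then lay at 64.1% of lost and 41.2% of kept peaks, H2AK119ub1 at 53.0% and 82.7%, and a gene end or start at 76.9% and 71.0%. With this minimum for WT alone, 16.8% were lost, 176 genes were lost, and 1235 peaks and 908 genes were KO-only, since weak WT peaks no longer counted as matches. PCGF6 then lay at 82.8% of lost and 47.5% of kept peaks, a gene end or start at 80.5% and 72.9%, and H2AK119ub1 at 75.5% of kept peaks. With lists of equal length, 34.9% were lost, 631 genes were lost, and 729 peaks and 513 genes were KO-only. PCGF6 then lay at 74.0% of lost peaks, a gene end or start at 75.9% of lost peaks, and H2AK119ub1 at 29.5% of lost and 69.1% of kept peaks. A gene end or start lay at 67.0% of lost and 70.6% of kept peaks with a 500 bp window, and at 82.1% and 85.2% with 5 kb. PCGF6 was more frequent at lost than at kept peaks, and H2AK119ub1 less, under every alternative run for them, while the order of the gene end shares turned round under the 2 score minimums and equal lengths. Windows at known starts alone (1351 lost genes, 192 KO-only) and the lists without peaks found in every other list were chosen after seeing the data. Unknown depth limits every lost call near the minimum score, and the cause of the shifts was not tested otherwise.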
